A study of Mus musculus with 32 samples.

Results

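Caspases are proteases that start and carry out programmed cell death, and necroptosis and pyroptosis are the forms of death in which a cell ruptures its own membrane. The genes described here were the 9 rows of the count table named Casp1, Casp4, Casp8, Casp9, Casp12, Ripk1, Ripk3, Mlkl and Gsdmd, out of 54532 genes, and they were chosen by name and not by their values. The study followed acute kidney injury caused by cisplatin, a platinum drug that binds DNA and injures the proximal tubule, in wild-type (wt) mice of the inbred strain C57BL/6, aged 6 to 8 weeks when they were acquired. Whole-kidney RNA was sequenced from 32 mice in 8 groups of 4: each sex had a Day 0 group and 3 groups sampled on Day 2, Day 3 or Day 5 after a single intraperitoneal dose of 20 mg/kg cisplatin. The Day 0 mice are described as healthy in the study, although the sample labels give a cisplatin treatment for the Day 0 females and NA for the Day 0 males.

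In apoptosis, caspase-9 is switched on by a complex that forms when mitochondria leak cytochrome c, and caspase-8 by death receptors on the cell surface. When caspase-8 does not act, the kinases Ripk1 and Ripk3 assemble into a necrosome and Ripk3 phosphorylates Mlkl, which then breaches the plasma membrane (necroptosis). In pyroptosis, caspase-1 or caspase-11 (the product of mouse Casp4) cuts gasdermin D, encoded by Gsdmd, and its fragment forms membrane pores. These proteins are switched on by cleavage, binding or phosphorylation, which an RNA level does not report.

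The 5 caspase genes share the codon of the catalytic cysteine, which is shown because it places the family side by side. In each of the following coding stretches of 27 bases (GENCODE transcripts, GRCm38, plus strand, 5′ to 3′) the capitals mark that codon.
Casp1: attattcaggcaTGCcgtggagagaaa
Casp4: attgtgcaggccTGCagaggtgggaac
Casp12: atcatgcaggccTGCagaggcagatat
Casp8: ttcattcaggctTGCcaaggaagtaac
Casp9: ttcatccaggccTGCggtggtgagcag
The codon is number 284 of 402 in Casp1 (chr9:5303765-5303767, exon 6 of 10), 254 of 373 in Casp4 (chr9:5324949-5324951, exon 5 of 9), 298 of 419 in Casp12 (chr9:5353859-5353861, exon 7 of 11), 382 of 500 in Casp8 (chr1:58844619-58844621, exon 9 of 10) and 325 of 454 in Casp9 (chr4:141807253-141807255, exon 6 of 9). Of the 27 bases, 20 were equal between Casp4 and Casp12 and 16 between Casp1 and Casp12, and the other pairs lay between these counts or at 16.

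Casp1, Casp4 and Casp12 lie next to each other on the plus strand of mouse chromosome 9, at chr9:5298517-5307265, chr9:5308828-5336783 and chr9:5345430-5373032 (GRCm38), with gaps of 1562 and 8646 bases between them. No exact stretch of 50 bases was shared between the transcripts of these 3 paralogs, so a read matched over that length belonged to 1 of them. The others lie apart: Casp8 at chr1:58795374-58847503, Casp9 at chr4:141793612-141815976, Ripk1 at chr13:34002363-34037147 and Gsdmd at chr15:75862327-75867408 on the plus strand, and Ripk3 at chr14:55784995-55788865 and Mlkl at chr8:111311797-111338177 on the minus strand. Among stretches of 150 bases, the read length, 5.47% of those of Ripk1 also occurred in a transcript of another gene, the pseudogene Gm17084 or the antisense strand of Serpinb6a, and none did for the other 8 genes. Over 50 bases, 4.37% of the stretches of Casp8 also occurred in the transcript Gm20257. Serpinb6a overlaps Ripk1 on the opposite strand and held up to 2251 counts in a library, and since the strandedness of the counting is not given in the sources used here, Ripk1 counts could include reads of Serpinb6a.

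RefSeq promoters (GRCm38.p6, 250 bases before to 50 after a start site) were found for 8 of the 9 genes, all but Gsdmd. They were searched on both strands for 3 motifs of inflammatory transcription factors: TTCNNNGAA, the site bound by STAT factors (GAS), the core of the interferon-stimulated response element (ISRE), which is a pair of GAAA repeats with any 2 bases between them, and the NF-κB consensus. The GAS letters were found for Casp12 and Ripk1 and in 8.3% of all 32851 promoters, the ISRE core for Ripk1 and in 3.44%, and the NF-κB consensus for Casp4 and in 8.46%. These 30-base windows are shown because they are every match among the 9 genes, with the matched letters in capitals, on the plus strand.
Casp12, GAS, chr9:5345364-5345393: ctggttgactTTCTGGGAAaagagcaggag
Casp12, GAS, chr9:5345430-5345459: attggtatgtTTCTGGGAAggaaaggcaca
Casp4, NF-κB, chr9:5308747-5308776: tgagttacaGGGGATTTCCCcacagcagtt
Casp4, NF-κB, chr9:5308800-5308829: aacatctcctGGAAGTCCCCgcctccctat
Ripk1, GAS, chr13:34002756-34002785: agaagctggtTTCCCGGAAggggcggaggc
Ripk1, GAS overlapping the ISRE core, chr13:34002856-34002885: tcaaacgTTCCCGGAAATCGAAAagcgcgg
The Casp12 matches began 102 and 36 bases before the start site of the RefSeq promoter. The second of them, like both Ripk1 windows, lies inside the gene as the count table annotates it. A match of letters is a description and does not show that a factor was bound.

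The libraries held between about 16502100 and 35961300 counts on genes. A count of 3 in a library, taken as the limit of detection, was worth between 0.067 and 0.484 CPM (counts scaled to library size, with TMM factors over the 32 libraries), and it covers counting error only. Casp1 and Ripk3 sat lowest in reads, with 0 to 80 and 0 to 65 counts per library, whereas Casp8, Casp9 and Ripk1 had medians of 552, 726.5 and 631 counts. Some libraries stood apart. Male Day 0 mouse 3 and female Day 0 mouse 3 had 0 counts of 90 and 168 genes, respectively, that held at least 10 counts in each of the other libraries. The hepatocyte markers summed to 9724 CPM in female Day 0 mouse 2, against 276 to 380 CPM in the other 3 female Day 0 mice and at most 2037 CPM in any of the other 31 libraries. Between 78.9% and 79.8% of counts lay on mitochondrial genes in male Day 5 mice 2 to 4, as did 77.9% in female Day 5 mouse 2, against 4.49% to 42.5% in the other 28. Xist, a transcript of the inactive X chromosome of females, had 4153 counts in the library with the label male Day 5 mouse 1, beside 0 to 260 in the other 15 male libraries. The same library held 387 raw counts of Y-linked genes, against 447 to 545 in the other male Day 5 mice. These were not scaled to depth, and 3 counts were worth 0.168 CPM in that library and 0.421 to 0.484 CPM in the other male Day 5 mice. The same count therefore stands for a lower level in that library. Males of Day 0, Day 2 and Day 3 held 1367 to 3195, the Day 0 females 5 to 221 and the 12 later females 0. The kidney label was matched by the proximal tubule markers, which summed to between 550 and 9840 CPM.

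Of the 54 tests of the 9 genes against Day 0, 1 was called: Casp12 rose in males at Day 5. Values by mouse are given beside edgeR's quasi-likelihood test on counts. A gene was called at a Benjamini-Hochberg adjusted p under 0.05, adjusted over all genes tested. The study's rule for a differentially expressed gene (DEG) adds a log fold change over 1.5, read here as an absolute log2 fold change.

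**Figure D1:**
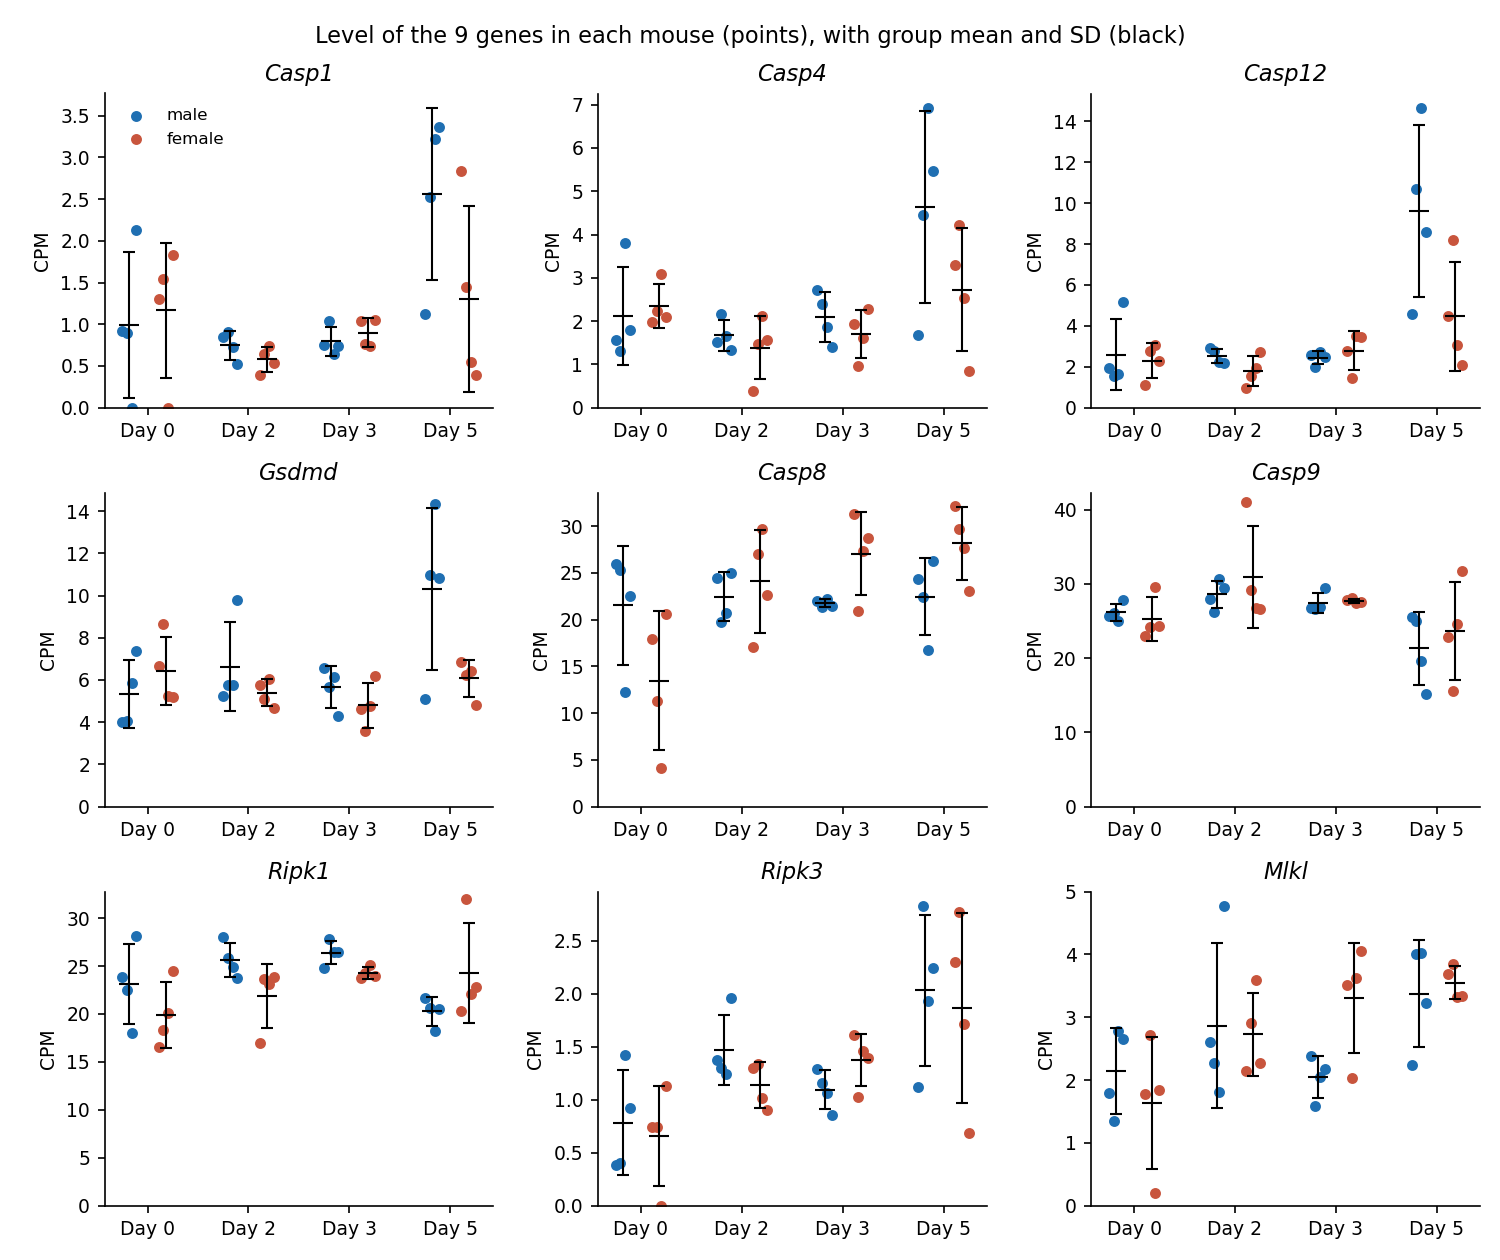
Level of each of the 9 genes (y axis, CPM) by day (x axis) in male (blue) and female (red) mice. Each point is 1 mouse, and black lines give the group mean and SD (n = 4). The group mean of Casp12 is highest in male Day 5 mice, which lie between 4.59 and 14.7 CPM. Male Day 0 mouse 4 (5.18 CPM) and female Day 5 mouse 2 (8.18 CPM) lie above the lowest of them.

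Before injection the genes differed widely in level. On the length-scaled FPKM that the authors deposited, the medians over the 8 Day 0 mice were 6.57 for Casp8 and 4.81 for Casp9, the initiators of apoptosis, 2.55 for Ripk1 and 2.39 for Gsdmd. The other 5 lay lower, with medians of 0.774 for Mlkl, 0.718 for Casp1, 0.542 for Casp4, 0.538 for Casp12 and 0.318 for Ripk3. Neighbours in this order overlapped over the 8 mice, except that all Casp9 values (4.32 to 5.88) lay above all Ripk1 values (1.93 to 3.28) and all Gsdmd values (1.62 to 3.57) above all Mlkl values (0.0878 to 1.22). The widest range was that of Casp8, from 1.47 to 8.61. In bulk kidney a lower level cannot be told apart from fewer cells that express a gene.

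Casp12, a caspase of the endoplasmic reticulum in mice, was the member that was called. In males it measured 1.95, 1.55, 1.64 and 5.18 CPM at Day 0, 2.90, 2.75, 2.25 and 2.18 at Day 2, and 2.59, 2.01, 2.70 and 2.49 at Day 3. At Day 5 it measured 4.59, 10.7, 14.7 and 8.56 CPM, so that 3 mice lay above every Day 0 mouse and the library labelled mouse 1 fell within their range. The log2 fold changes were -0.02 at Day 2 and -0.07 at Day 3, both with intervals that included 0. The log2 fold change at Day 5 was 1.97 (SE 0.50, 95% interval 0.85 to 3.09, edgeR adjusted p = 0.0264, n = 4), which also met the DEG rule. Of all 14969 genes tested in this comparison, 8.98% were called higher, 10.2% lower and 3.83% were DEGs with higher levels, so that 1 of 9 called higher is near the share of all genes. The call was lost on leaving out any 1 of 5 mice, male Day 0 mouse 1 or 2 or male Day 5 mouse 2, 3 or 4, with log2 fold changes between 1.68 and 2.02 and adjusted p between 0.0618 and 0.0849. In females the log2 fold changes of Casp12 were -0.37 at Day 2 and 0.27 at Day 3, with intervals that included 0. Casp12 there measured 1.10, 2.75, 3.09 and 2.27 CPM at Day 0 and 4.46, 8.18, 3.09 and 2.10 at Day 5, where the groups overlapped and the log2 fold change was 0.95 (SE 0.51, adjusted p = 0.389). The sex difference in the Day 5 change was 1.01 on the log2 scale (95% interval -0.51 to 2.53, adjusted p = 0.548).

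Gsdmd, the pore-forming substrate of the inflammatory caspases, was high in the same 3 male Day 5 mice. It measured 4.02, 4.05, 5.88 and 7.36 CPM in males at Day 0 and 5.09, 10.99, 14.3 and 10.8 at Day 5, again with the library labelled mouse 1 among the Day 0 values and the other 3 above them. Its log2 fold change was 1.01 (SE 0.36, 95% interval 0.20 to 1.82) and was not called by edgeR (adjusted p = 0.0765). DESeq2's Wald test called it (adjusted p = 0.0410), as did 1 edgeR fit over all 8 groups (adjusted p = 0.0102), and these called 28.1% and 31.1% of all genes tested. In females the 4 Day 5 mice lay between 4.804 and 6.83 CPM, within the Day 0 range of 5.18 to 8.63 apart from the lowest, and the log2 fold change was -0.08 (95% interval -0.73 to 0.57). The sex difference in that change was 1.07 (95% interval 0.12 to 2.02, adjusted p = 0.272). At Day 2 and Day 3 the log2 fold changes of Gsdmd were 0.32 and 0.09 in males and -0.25 and -0.44 in females, with all 4 intervals including 0.

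Casp1 and Casp4, which cut gasdermin D, were low throughout. Casp1, the activator of interleukin-1β and interleukin-18, had 0 counts in male Day 0 mouse 3 and in female Day 0 mouse 3, which allows levels of up to 0.109 and 0.147 CPM, and 0.90 to 2.13 CPM in the other 6 Day 0 mice. At Day 2 and Day 3 it lay between 0.391 and 1.05 CPM in all 16 mice, with log2 fold changes of -0.36 and -0.29 in males and -1.03 and -0.41 in females, and all 4 intervals included 0. In males at Day 5 it measured 1.12, 2.53, 3.22 and 3.37 CPM, with a log2 fold change of 1.45 (95% interval -0.66 to 3.57, adjusted p = 0.297). Casp4, a sensor of intracellular lipopolysaccharide, measured 1.57, 1.30, 3.80 and 1.78 CPM in males at Day 0 and 1.68, 4.46, 6.93 and 5.48 at Day 5, with a log2 fold change of 1.16 (SE 0.53, adjusted p = 0.144). Its largest male Day 0 value came from mouse 3. At Day 2 and Day 3 the log2 fold changes of Casp4 were -0.34 and -0.03 in males and -0.76 and -0.48 in females, again with intervals that included 0. In females at Day 5, the log2 fold changes were 0.14 for Casp1 and 0.21 for Casp4, both with intervals that included 0. Without male Day 0 mouse 3 and the library labelled male Day 5 mouse 1, edgeR called Casp4 (log2 fold change 1.94, adjusted p = 0.00327), Casp12 (2.06, adjusted p = 0.00917), Gsdmd (1.32, adjusted p = 0.00963) and Ripk3 (2.12, adjusted p = 0.0137), which is 4 of 9 genes in place of 1. Over all genes tested, that fit called 5538 of 14886 (37.2%) in either direction, in place of 2878 of 14969 (19.2%).

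**Figure D2:**
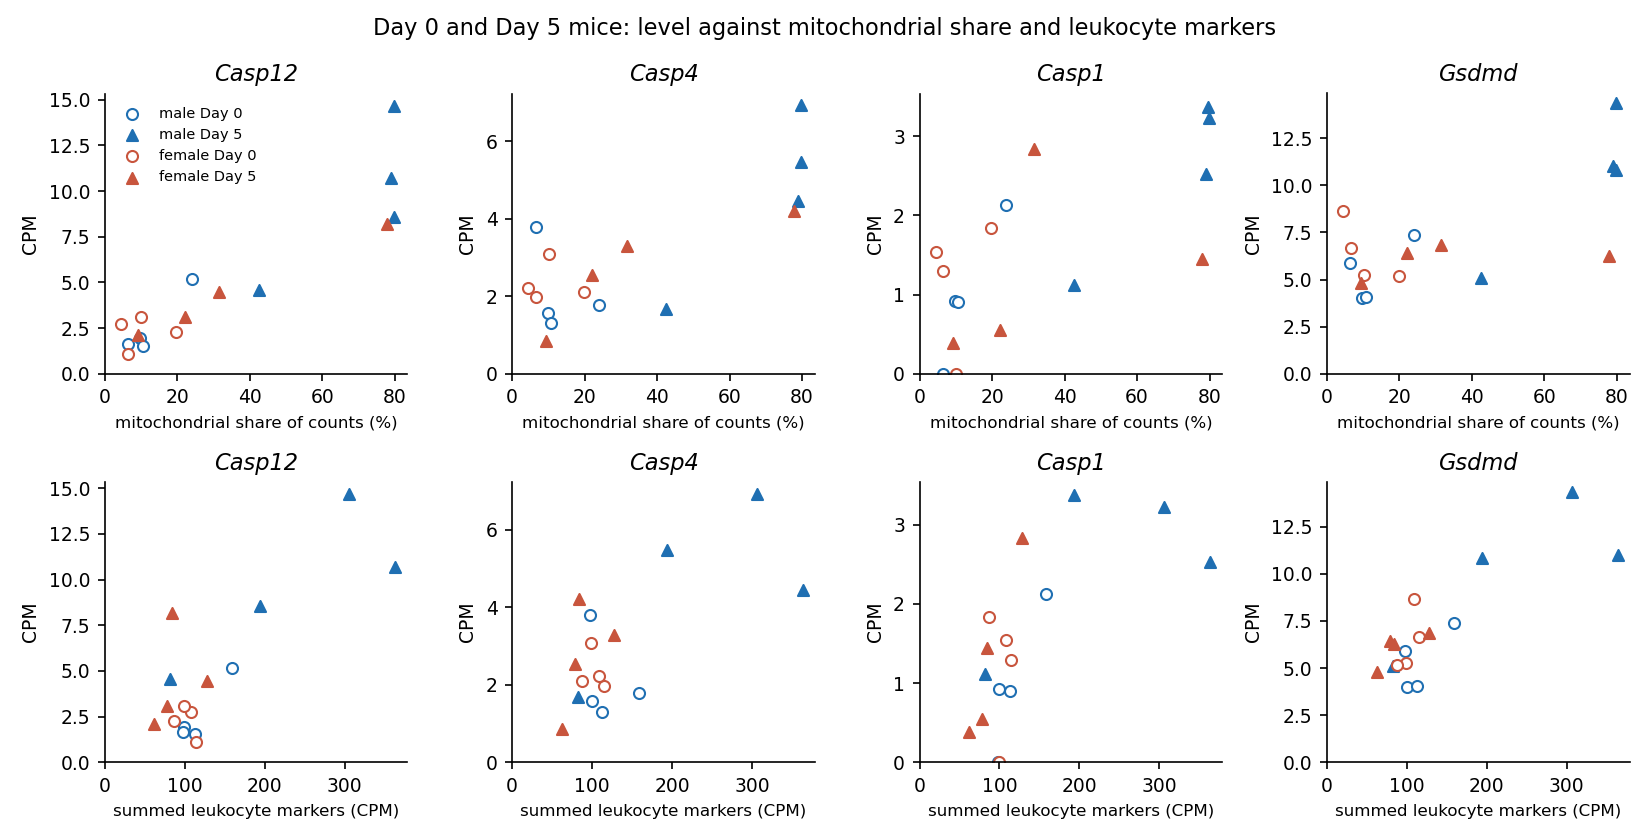
Levels of Casp12, Casp4, Casp1 and Gsdmd (y axes, CPM) at Day 0 (open circles) and Day 5 (triangles) against the share of counts on mitochondrial genes (upper panels, %) and the summed leukocyte markers (lower panels, CPM), in males (blue) and females (red). Each point is 1 mouse. The 3 male Day 5 mice with 78.9% to 79.8% mitochondrial counts also have the highest leukocyte sums, 194 to 364 CPM.

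The male Day 5 values moved together with other features of those libraries. The 12 leukocyte markers summed to 82.2, 364, 306 and 194 CPM in the 4 male Day 5 mice, against 97.8 to 159 CPM in the male Day 0 mice and 62.1 to 128 CPM in the female Day 5 mice. Of the 10 leukocyte markers tested in males at Day 5, edgeR called S100a8 and S100a9, calcium-binding proteins of neutrophils, higher and Csf1r, a macrophage receptor, lower. The neutrophil enzyme gene Mpo was at 0 counts in all 32 libraries. The 8 proximal tubule markers summed to 4114 CPM in the library labelled male Day 5 mouse 1 and to 550 to 1072 in the other 3, against 7936 to 9840 at Day 0, and 3 of 8 were called lower. Of the other lists, 3 of 4 collecting duct markers and 2 of 5 endothelial and glomerular markers were called higher in the same comparison. Cyp2e1 and Ttr, 2 of 4 hepatocyte markers tested, were called lower. The hepatocyte sums lay at 1082 to 2037 CPM in the male Day 0 mice, and the cell type behind them was not tested. There were 0 of 4 thick limb and distal tubule and 0 of 4 adipocyte markers called. Over all genes tested, 8.98% were called higher and 10.2% lower. The part of these markers in the rise of Casp12 was not tested. In a fit with the mitochondrial genes left out before normalization, the log2 fold change of Casp12 was 1.93 (edgeR adjusted p = 0.0296). That fit keeps the same mice and tissue, and the part of the mitochondrial share in the rise was not tested. In female Day 5 mouse 2, with 77.9% mitochondrial counts and leukocyte markers at 83.97 CPM, Casp12 was at 8.18 CPM and Gsdmd at 6.26 CPM.

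Casp8, the initiator downstream of death receptors and a brake on necroptosis, had higher values in Day 3 and Day 5 females than in Day 0 females, although the test did not call it. In females it measured 17.97, 11.2, 4.12 and 20.6 CPM at Day 0. It measured 17.1, 27.0, 29.7 and 22.6 CPM at Day 2, 31.2, 20.9, 27.3 and 28.7 at Day 3, and 32.2, 29.7, 27.7 and 23.0 at Day 5. The Day 3 and Day 5 values all lay above the Day 0 values, the lowest Day 3 value (20.9 CPM) narrowly so over the highest Day 0 value (20.6 CPM). The log2 fold changes were 0.83 at Day 2 (SE 0.41, adjusted p = 0.234), 0.98 at Day 3 (SE 0.42, 95% interval 0.04 to 1.93, adjusted p = 0.148) and 1.06 at Day 5 (SE 0.41, 95% interval 0.16 to 1.95, adjusted p = 0.261). A single edgeR fit over all 8 groups called Casp8 in females at each day, with adjusted p of 0.0355, 0.0130 and 0.0208. That fit called 21.8%, 23.4% and 10.9% of all genes at these days, 3976, 4268 and 1994 of 18220, in place of 320, 945 and 42 genes in the fits of the compared groups alone. The lowest value, 4.12 CPM, came from female Day 0 mouse 3, where it stood on 84 counts, and without that mouse the log2 fold changes were 0.56, 0.69 and 0.76. Without female Day 0 mouse 2, the one with the high hepatocyte markers, they were 0.77, 0.90 and 0.98. In males Casp8 measured 25.9, 25.3, 12.2 and 22.6 CPM at Day 0, with the low value in mouse 3, and 22.0, 21.3, 22.2 and 21.4 at Day 3, for a log2 fold change of 0.02 (95% interval -0.46 to 0.50). At Day 2 and Day 5 the male log2 fold changes were 0.08 and 0.13. The sex difference in the Day 3 change was -0.996 on the log2 scale, male minus female (95% interval -2.06 to 0.07, adjusted p = 0.729).

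Casp9, the initiator on the mitochondrial route, had narrow intervals around 0 at Day 3. It measured 25.7, 26.1, 25.0 and 27.8 CPM in males at Day 0 and 26.7, 26.7, 26.9 and 29.5 at Day 3, for a log2 fold change of 0.07 (95% interval -0.15 to 0.29). In females it measured 23.0, 24.1, 29.6 and 24.3 CPM at Day 0 and 27.8, 28.1, 27.5 and 27.5 CPM at Day 3, for a log2 fold change of 0.12 (95% interval -0.19 to 0.43). These intervals exclude a change of 1.5-fold in either direction at Day 3. At Day 5 the spread was wider, with 25.5, 25.0, 19.7 and 15.2 CPM in males and 22.9, 15.5, 24.6 and 31.7 CPM in females. The log2 fold changes at Day 2 and Day 5 were 0.14 and -0.23 in males and 0.29 and -0.09 in females, with all 4 intervals including 0.

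Ripk1, the kinase at which survival and death signals of the TNF receptor part, measured 23.9, 22.5, 18.03 and 28.1 CPM in males and 16.5, 18.4, 20.1 and 24.5 CPM in females at Day 0. At Day 5 it measured 21.7, 20.6, 18.2 and 20.5 CPM in males and 20.3, 32.002, 22.1 and 22.8 CPM in females, and the groups overlapped in both sexes. Its log2 fold changes at Day 2, Day 3 and Day 5 were 0.16, 0.19 and -0.12 in males and 0.14, 0.27 and 0.29 in females, and all 6 intervals included 0. At Day 3 it measured 24.8, 27.8, 26.5 and 26.4 CPM in males and 23.8, 24.3, 25.1 and 23.9 CPM in females, with groups that overlapped and a male to female log2 fold change of 0.09 (95% interval -0.05 to 0.23).

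Ripk3, the kinase that defines the necrosome, had the lowest median FPKM of the 9 genes over the Day 0 mice. In males it measured 0.380, 0.400, 1.42 and 0.920 CPM at Day 0 and 1.38, 1.29, 1.25 and 1.96 at Day 2, with a log2 fold change of 0.90 (95% interval -0.23 to 2.02, adjusted p = 0.263). The male log2 fold change at Day 3 was 0.46, with an interval that included 0. At Day 5 it measured 1.12, 2.82, 1.93 and 2.25 CPM, with a log2 fold change of 1.40 (SE 0.59, 95% interval 0.08 to 2.71, adjusted p = 0.121), and male Day 0 mouse 3 overlapped these values. In females it had 0 counts in Day 0 mouse 3 and 0.742 to 1.13 CPM in the other 3, against 2.30, 2.77, 1.72 and 0.686 CPM at Day 5. The female log2 fold changes at Day 2, Day 3 and Day 5 were 0.77, 1.02 and 1.47 with standard errors between 0.76 and 0.89. All 6 point estimates were above 0 and no test was called.

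Mlkl, which carries out necroptosis, measured 1.78, 2.72, 0.196 and 1.83 CPM in Day 0 females and 3.68, 3.85, 3.33 and 3.35 CPM in Day 5 females, groups that did not overlap. Its log2 fold change was 1.10 (SE 0.61, 95% interval -0.24 to 2.44, adjusted p = 0.400), and the 0.196 CPM of mouse 3 stood on 4 counts. In males it measured 1.79, 1.35, 2.77 and 2.65 CPM at Day 0 and 2.38, 1.58, 2.05 and 2.18 at Day 3, for a log2 fold change of -0.07 (95% interval -0.77 to 0.63). At Day 2 the log2 fold change was 0.42 in males and 0.72 in females, and at Day 3 it was 0.98 in females, with intervals that included 0. At Day 5 the male log2 fold change was 0.71 (95% interval -0.18 to 1.59, adjusted p = 0.230).

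**Figure D3:**
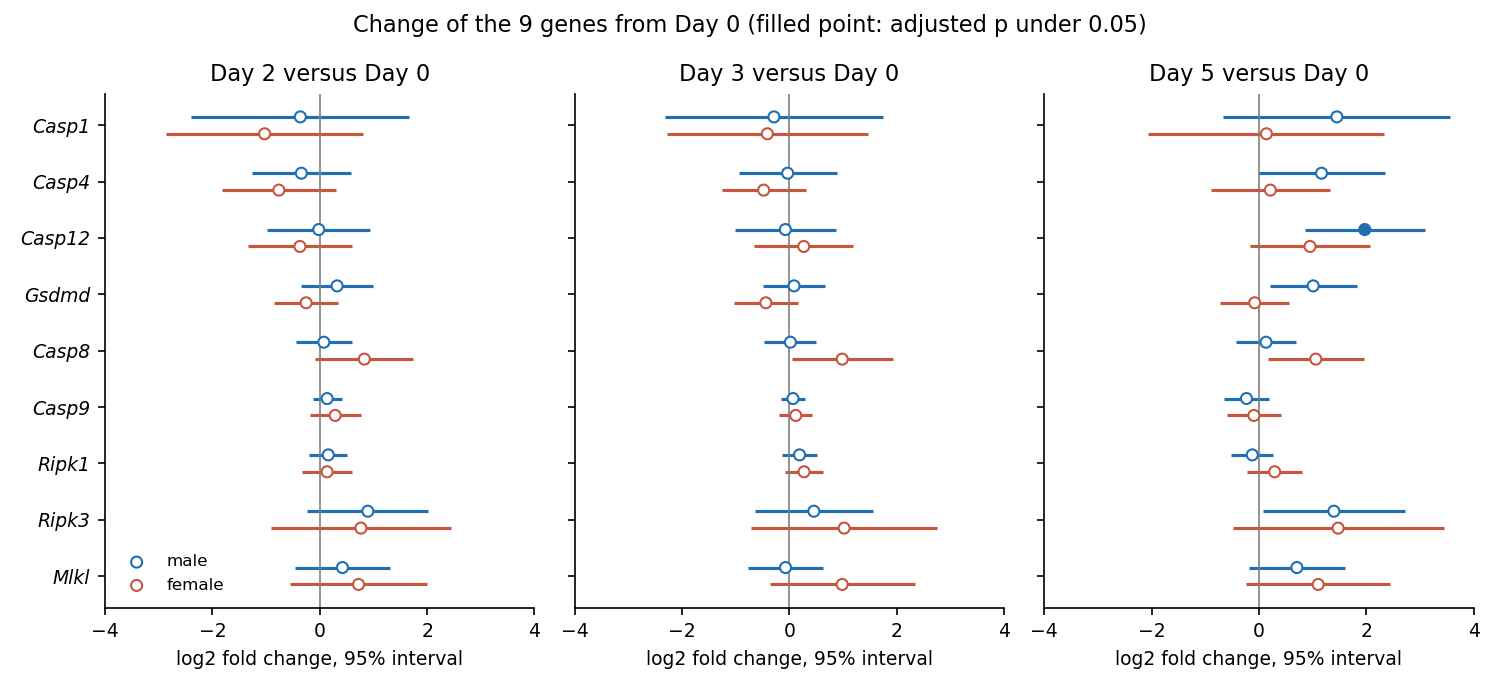
Log2 fold change of each gene from Day 0 (x axis) with its 95% interval (line) in males (blue) and females (red) at Day 2, Day 3 and Day 5, from edgeR fits on counts. A filled point marks an adjusted p under 0.05, which applies to Casp12 in males at Day 5 and to no other point.

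Counted over the comparisons, edgeR called 0 of 9 genes in males at Day 2, where 1.81% of all genes tested were called higher and 1.35% lower, and 0 of 9 at Day 3, where the shares were 11.4% and 13.1%. In females it called 0 of 9 at Day 2 (0.774% of all genes higher, 1.16% lower), at Day 3 (1.26% and 4.28%) and at Day 5 (0.185% and 0.0738%). At an unadjusted p under 0.05 there were 0 of 9 in males at Day 2 and Day 3 and 3 of 9 at Day 5, beside 29.0%, 40.5% and 36.1% of all genes tested. In females there were 0 of 9 at Day 2 and 1 of 9, Casp8, at Day 3 and at Day 5, beside 25.3%, 30.7% and 15.7% of all genes tested. DESeq2's Wald test also called 0 of 9 in the 5 comparisons other than males at Day 5, where it called 18.2% and 35.1% of all genes in males at Day 2 and Day 3 and 12.95%, 21.2% and 4.56% in females at Day 2, Day 3 and Day 5. The median log2 fold change of the 9 genes was 0.14, 0.02 and 1.01 in males at Day 2, Day 3 and Day 5, beside 0.03, 0.02 and 0.04 over all genes tested. In females it was 0.14, 0.27 and 0.29, beside 0.03, 0.03 and 0.03. These comparisons share their Day 0 mice within each sex. On simulated counts of the male Day 3 comparison, edgeR called 25 of 100 genes changed 2-fold and 78 of 100 changed 4-fold. That simulation changed 200 of 15565 genes, all with means over 1 CPM, whereas the real fit called 3901 of 15908. Its call rates therefore need not hold for the real fit, for genes at lower levels or for other comparisons. The intervals above give what was not excluded.

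Between the sexes, edgeR called 0 of 9 genes on any of the 4 days, with 0.449% of all genes tested called in either direction at Day 0, 1.47% at Day 2, 21.3% at Day 3 and 0.276% at Day 5. Their male to female log2 fold changes lay between -0.29 and 0.66 at Day 0 and between -0.12 and 0.49 at Day 2, with intervals that included 0 for all 9 genes on both days. At an unadjusted p under 0.05 there were 0, 0, 2 and 2 of 9, beside 8.04%, 15.0%, 36.7% and 20.3% of all genes tested. At Day 3 these were Mlkl, with 2.38, 1.58, 2.05 and 2.18 CPM in males and 3.52, 2.03, 3.62 and 4.05 in females, and Casp8. The male to female log2 fold change was -0.72 for Mlkl (SE 0.23, 95% interval -1.23 to -0.20, adjusted p = 0.0515) and -0.34 for Casp8 (SE 0.11, 95% interval -0.59 to -0.10, adjusted p = 0.0527). In each gene female mouse 2 was the 1 female within or below the male range, and without it both were called (Mlkl -0.89, adjusted p = 0.00307; Casp8 -0.44, adjusted p = 0.00101), as were 34.6% of all genes tested. DESeq2's Wald test called both at Day 3, with adjusted p of 0.0253 for Mlkl and 0.0430 for Casp8, and 0 of 9 at the other 3 days. It called 25.9% of all genes at Day 3 and 2.68%, 5.12% and 7.11% at Day 0, Day 2 and Day 5. At Day 5 the 2 genes were Casp12 (log2 fold change 1.17, adjusted p = 0.209) and Gsdmd (0.81, adjusted p = 0.207), and without the library labelled male Day 5 mouse 1 both were called (Casp12 1.49, adjusted p = 0.0345; Gsdmd 1.10, adjusted p = 0.0147). Without that library 2644 of 15562 genes (16.99%) were called, in place of 42. In the test of whether the change from Day 0 differed between males and females, 0 of 9 were called at Day 2, Day 3 and Day 5, where 0%, 0.0114% and 0.243% of all genes tested were called. DESeq2's Wald test called 0 of 9 there as well, with 0.109%, 0.432% and 3.96% of all genes called. At an unadjusted p under 0.05 there were 0, 0 and 1 of 9, Gsdmd at Day 5, beside 4.23%, 7.11% and 15.2% of all genes tested.

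Some other genes of the same pathways passed the test at Day 3. Over 4 lists of 40 genes, edgeR called 8 higher and 3 lower of 36 tested in males, which is 22.2% and 8.33%, beside 11.4% and 13.1% of all genes. In females it called 2 higher and 1 lower of 38 tested, which is 5.26% and 2.63%, beside 1.26% and 4.28% of all genes. These counts hung on single mice. Leaving out any 1 of the 4 Day 3 males left 1 to 3 higher and 1 lower, in fits that called 4.18% to 7.98% of all genes, whereas without male Day 0 mouse 3 or 4 there were 10 higher and 9 or 7 lower, in fits that called 38.6% and 34.7%. In females 6 of the 8 fits that left out 1 mouse called 0 of the listed genes and at most 1 of all genes. There were 11 higher and 7 lower without Day 0 mouse 4, where 39.15% of all genes were called, and 4 higher and 0 lower without Day 3 mouse 2, where 3.15% were. With DESeq2's Wald test there were 11 higher and 7 lower in males and 7 higher and 5 lower in females, with 35.1% and 21.2% of all genes called. The fit over all 8 groups called 4 higher and 4 lower in males and 9 higher and 6 lower in females, with 19.5% and 23.4% of all genes called, so which sex had more calls depended on the fit.

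Upstream of Casp8, among 9 death ligands, receptors and adaptors (7 tested in males, 8 in females), 2 were called higher in males and 1 in females at Day 3. Tnfrsf10b, the mouse receptor of the death ligand TRAIL, was called higher in both. It measured 2.77, 1.90, 4.74 and 3.28 CPM in males at Day 0 and 7.55, 5.598, 7.67 and 6.42 at Day 3, without overlap, for a log2 fold change of 1.09 (SE 0.29, edgeR adjusted p = 0.0297). In females it measured 2.21, 1.95, 2.11 and 3.18 CPM at Day 0 and 16.2, 2.86, 12.7 and 12.5 at Day 3, where mouse 2 stayed among the Day 0 values, for a log2 fold change of 2.21 (SE 0.48, adjusted p = 0.0474). The proximal tubule markers of these females ran the opposite way, low where Tnfrsf10b was high. They summed to 2982, 3607 and 3417 CPM in mice 1, 3 and 4 and 6919 CPM in mouse 2, against 6244 to 9449 CPM at Day 0. Their part in the Day 3 values was not tested. In males they summed to 6482 to 9509 CPM at Day 3 and 7936 to 9840 CPM at Day 0. Tnfrsf10b was also called in females at Day 2 (log2 fold change 2.51, adjusted p = 0.00769) and in males at Day 5 (1.12, adjusted p = 0.0459). Its male Day 3 call was lost without male Day 0 mouse 1 or 2 or any 1 of the Day 3 males (edgeR adjusted p 0.0513 to 0.0899). Its female Day 3 call was lost without female Day 0 mouse 1, 2 or 3 or Day 3 mouse 1, 3 or 4 (0.0734 to 0.168). Cflar, the inhibitor that pairs with caspase-8, rose in males by 0.59 (adjusted p = 0.0144) and had 0.43 in females. Its call was lost without male Day 3 mouse 2 or 3 (0.0517 and 0.0574).

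Around Ripk1, 4 of 12 necrosome regulators were called higher in males and 1 in females at Day 3. Birc3 and Birc2, the cIAP ubiquitin ligases that keep Ripk1 in its survival form, had log2 fold changes of 1.07 (adjusted p = 0.0170) and 0.72 (adjusted p = 0.00548) in males. In females those were 1.52 for Birc3 (adjusted p = 0.0465) and 0.60 for Birc2, which was not called. Birc3 lay between 8.48 and 15.9 CPM in males at Day 3 and between 4.63 and 6.08 at Day 0. Cyld, which removes ubiquitin chains from Ripk1, and Map3k7, which encodes the kinase TAK1, were called higher in males by 0.56 (adjusted p = 0.0236) and 0.45 (adjusted p = 0.0437). Both calls were lost without any 1 of the Day 3 males (edgeR adjusted p 0.0630 to 0.111). The male Birc3 call was lost without Day 3 mouse 3 (0.0600). The female Birc3 call was lost without female Day 0 mouse 1, 2 or 3 or Day 3 mouse 1, 3 or 4 (0.0720 to 0.168).

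On the mitochondrial route to Casp9, 2 of 9 genes were called higher and 1 lower in males, and 0 higher and 1 lower in females. Apaf1, the scaffold that activates caspase-9, rose in males by 0.97 on the log2 scale (adjusted p = 0.0248), from 3.15 to 5.66 CPM at Day 0 to 6.79 to 10.3 CPM at Day 3, and had 1.28 in females. Xiap, an inhibitor of caspases, rose in males by 0.46 (adjusted p = 0.0198). Cycs, which encodes cytochrome c, fell by 0.85 in males (adjusted p = 0.00852), and Diablo, which relieves caspases of Xiap, fell by 1.45 in females (adjusted p = 0.0479). The Xiap call was lost without any 1 of the Day 3 males (edgeR adjusted p 0.0551 to 0.0730). The Apaf1 call was lost without male Day 0 mouse 2 or Day 3 mouse 1, 3 or 4 (0.0556 to 0.0821). The Diablo call was lost without any 1 of the females other than Day 0 mouse 4 (0.0761 to 0.168).

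Beside Casp1 and Gsdmd, 2 of 8 inflammasome genes tested in males were called lower at Day 3 and 0 of 9 tested in females were called, with a list median of -0.47 in males and -0.83 in females. Il18, a cytokine that caspase-1 matures, was called lower in males by 1.15 (adjusted p = 0.0311) and had -1.74 in females. It was low, at 1.20 to 1.95 CPM in males at Day 0 and 0.661 to 0.798 CPM at Day 3. The call was lost without male Day 0 mouse 1 or any 1 of the Day 3 males (edgeR adjusted p 0.0673 to 0.0952). Ninj1, needed for plasma membrane rupture at the end of pyroptosis, fell in males by 1.54 (adjusted p = 0.0198), from 217, 234, 561 and 179 CPM to 103, 101, 98.4 and 109 CPM. This call, too, was lost without any 1 of the Day 3 males (edgeR adjusted p 0.057 to 0.070). In females Ninj1 measured 257, 401, 637 and 121 CPM at Day 0 and 121, 125, 113 and 123 CPM at Day 3, with the log2 fold change at -1.57.

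**Figure D4:**
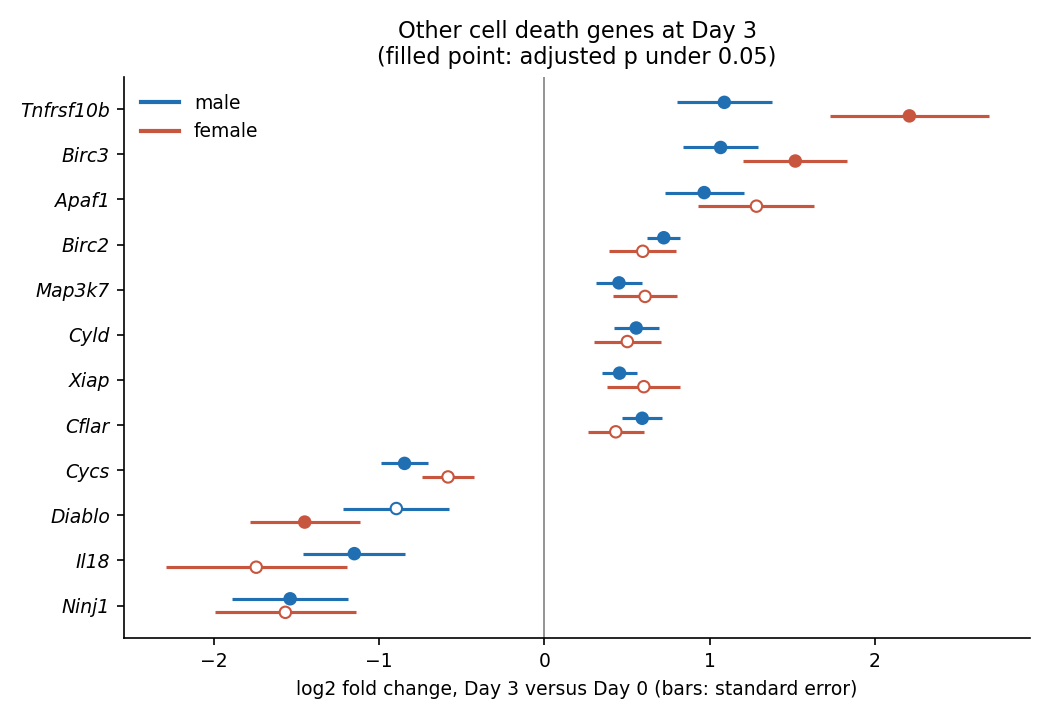
Log2 fold change from Day 0 to Day 3 (x axis) of the 12 named genes of the pathway lists in males (blue) and females (red), with standard errors as bars. Filled points have an adjusted p under 0.05. Tnfrsf10b and Birc3 are filled in both sexes, at 1.09 and 1.07 in males and 2.21 and 1.52 in females.

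Across the 24 libraries of Day 0, Day 2 and Day 3, the necrosome genes Ripk3 and Mlkl were the pair of the 9 whose log2 CPM ran most alike (Pearson r = 0.89), followed by Casp8 with Mlkl (0.76) and Casp8 with Ripk3 (0.71). Without the 2 Day 0 libraries that lacked many genes, these became 0.63, 0.37 and 0.20, and Casp12 with Ripk1 came first (0.64). The most opposed pair was Casp4 with Casp9 (-0.70, and -0.79 without those 2 libraries). Of other protein-coding genes, those most like Casp8 were Sde2 (0.97) and Rnf139 (0.96), most like Casp1 were Csnk2a2 and Gimap3 (0.94 each), and most like Ripk1 were Rhoq (0.95) and Smurf2 (0.92). Ripk3 was most like Lrrc8e and Gpr161 (0.92 each), Mlkl most like Msl3l2 and Rhbdl2 (0.90 each) and Casp4 most like Cdk11b and Zranb1 (0.87 each). For Casp9 they were Ptcd1 (0.85) and Tfip11 (0.84), for Gsdmd Vsig2 and Oas3 (0.76 each), and for Casp12 Celf2 (0.74) and Fmn2 (0.73). Over the 22 libraries without those 2, the values of these neighbours fell most for Casp1, to 0.72 with Csnk2a2 and 0.63 with Gimap3, for Ripk3, to 0.73 with Lrrc8e and 0.71 with Gpr161, and for Mlkl, to 0.66 with Msl3l2 and 0.64 with Rhbdl2. With Casp8 they were 0.88 for Sde2 and 0.87 for Rnf139, and for the other 5 genes they moved by less than 0.05. These are descriptions over libraries that share treatment, depth and composition.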

How the data were processed

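Whole-kidney RNA of 32 mice was sequenced in paired reads of 150 bases, 1 library per mouse. The authors aligned the reads to GRCm38 and deposited raw counts per gene for 54532 genes, without normalization, and FPKM, in which each count is divided by gene length and an effective library size. The submitters' processing notes name HTSeq, DESeq2 and the build GRCm39, without their roles, and the coordinates of the deposited tables are those of GRCm38. The aligner and the strandedness are not given in the sources used here. Samples were grouped by sex and day from the labels. Each library is 1 mouse, so p-values measure the spread between mice. No pair of libraries of a group held counts that agree within sampling noise.

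Counts were tested with edgeR 4.0.16 (TMM, filterByExpr with a minimum count of 10, robust dispersions, quasi-likelihood test) in R 4.3.3, in 13 comparisons, each fitted on the groups it compares, with Benjamini-Hochberg adjustment over all genes. CPM were computed over the 18220 genes passing the filter in the 32 libraries, and log2 CPM used a prior count of 2. DESeq2 1.42.0 was an alternative, beside the settings named in the closing section. FPKM served for levels between genes. On simulated counts of the male Day 3 comparison, with 200 changed genes among 15565 tested, edgeR called 2 unchanged genes and DESeq2 39. Tables were read with version 1.17.8 of the R package data.table. Promoters came from RefSeq and 141767 transcripts from GENCODE.

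The 9 genes, the pathway and marker lists and the tests were chosen with earlier results of these data known. All 9 genes were tested in every comparison, and some are given there by range or count alone. From each pathway list up to 4 genes are named, those with the largest log2 fold change averaged over the sexes at Day 3 among those called in either sex. For each of the 9 genes, the 2 protein-coding genes with the highest Pearson r are named. The motif search, the shared stretches, the pathway genes given by mouse and the fits without the libraries that stood apart were added after the values were seen. A list of further genes is not reported here.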

Additional observations from a re-analysis of the deposited data

Results flagged for a closer look

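Of the 72 groups of 4 mice examined (9 genes in 8 groups), 4 held a mouse far from the other 3 by Dixon's test at the 95% level, and chance flags about 1 in 20 such groups. Casp12 was at 5.18 CPM in male Day 0 mouse 4, against 1.55 to 1.95 CPM in the other 3. Gsdmd was at 9.81 CPM in male Day 2 mouse 4, against 5.24 to 5.76 CPM. Casp9 was at 29.5 CPM in male Day 3 mouse 4, against 26.7 to 26.9 CPM. Ripk1 was at 16.9 CPM in female Day 2 mouse 1, against 23.2 to 23.9 CPM. Male Day 0 mouse 4 also held 23.97% of its counts on mitochondrial genes, against 6.46% to 10.7% in the other male Day 0 mice. Without that mouse, Casp12 at Day 5 in males had a log2 fold change of 2.53 (edgeR adjusted p = 0.0109).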

How the results depend on the processing

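Over the comparisons with Day 0, males against females at Day 3 and the other sex differences named, 1015 values of the 9 genes under the alternatives kept their direction and their side of the threshold, 42 changed sign, 26 passed the threshold newly and 5 lost it, and the cause was not tested for any of them. In males at Day 5, 2 of 9 genes were called with DESeq2's Wald test and in 1 fit over all 8 groups, and 4 without the libraries that stood apart (male Day 0 mouse 3, female Day 0 mouse 3 and the library labelled male Day 5 mouse 1, left out after the data were seen). Leaving out 1 mouse gave 0 to 3 called, with 3 when either of the male libraries that stood apart was left out (19.9% and 25.96% of all genes called) and 0 in fits that called 5.38% to 6.79%. The fit over all 8 groups called 1 of 9 (Casp8) in females at Day 2, Day 3 and Day 5, and leaving out 1 mouse gave 0 to 2 at Day 3, with 2 (Casp8 and Ripk1) without female Day 0 mouse 4, where 6774 of 17304 genes (39.15%) were called in place of 945. Without the libraries that stood apart, 1 gene (Gsdmd) differed between the sexes in its Day 5 change, where 1478 of 16962 genes (8.71%) were called in place of 41, and 2 differed between males and females at Day 5. Leaving out 1 mouse gave 0 to 2 for males against females at Day 3 and at Day 5. At Day 3 there were 2 with DESeq2's Wald test, 2 with no filter on low counts (9.89% of all genes called) and 1 (Mlkl) with the replicate block (17.6%).

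The mouse numbers are shared by the groups, and in no comparison did all 4 pairs correlate above 0.1, which was the condition for treating them as pairs. The nearest was males against females at Day 0, with 0.27, -0.07, 0.44 and 0.48, where the replicate block called 210 of all genes in place of 72 and 0 of the 9 genes. In the other comparisons 0 to 2 of 4 pairs did (r from -0.42 to 0.25). With the number as a replicate block, Casp12 in males at Day 5 kept its call (log2 fold change 2.03, edgeR adjusted p = 0.0452), and the pathway lists at Day 3 had 0 genes called in either sex, where the block called 90 of all genes in males and 0 in females. The signs that changed belonged to log2 fold changes that were not called. With the replicate block, these became 0.20 (Casp1) and 0.17 (Casp12) in males at Day 2, 0.28 (Casp1), 0.065 (Casp4) and 0.11 (Casp12) in males at Day 3, and 0.062 (Casp1) in females at Day 3. With no filter on low counts, Casp12 was 0.014 at Day 2 and Casp4 0.013 at Day 3 in males, and with at least 10 counts in every library Casp12 was 0.0084 at Day 2. That filter removed Casp1 and Ripk3 from each comparison with Day 0, and Mlkl from those in females. Without mitochondrial genes, Casp8 was -0.00014 in males at Day 3. Without the libraries that stood apart, Casp4 was 0.10 and Casp8 -0.14 in males at Day 2, Casp4 0.43, Casp8 -0.17 and Mlkl 0.091 at Day 3, and Casp8 -0.079 at Day 5, and Casp1 was -0.26 in females at Day 5.

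Leaving out 1 mouse in males gave ranges at Day 2 of -0.80 to 0.36 for Casp1, -0.52 to 0.10 for Casp4, -0.14 to 0.16 for Casp8 and -0.20 to 0.57 for Casp12. At Day 3 these were -0.72 to 0.43 for Casp1, -0.21 to 0.43 for Casp4, -0.17 to 0.10 for Casp8, -0.26 to 0.51 for Casp12, -0.24 to 0.091 for Mlkl and -0.042 to 0.28 for Gsdmd, and at Day 5 -0.060 to 0.24 for Casp8. In females at Day 5 they were -0.61 to 0.45 for Casp1, -0.085 to 0.52 for Casp4, -0.26 to 0.050 for Casp9 and -0.17 to 0.097 for Gsdmd. Low depth at a gene was confined to Casp1, Ripk3 and Mlkl among the 9, with under 10 counts in some libraries, and the libraries with 0 counts of Casp1 or Ripk3 were not the shallowest.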
